A study of Mus musculus with 6 samples.

Results

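The genes described here are 9 genes of the circadian clock, Clock, Per1, Per2, Per3, Cry1, Cry2, Nr1d1, Nr1d2 and Dbp, together with Bhlhe40, a repressor that binds the same DNA element as the clock. They were taken by gene symbol from the deposited table of B16F10 cells, in which all 10 were found among 27179 genes, each in 1 row. B16F10 is an established mouse melanoma line, labelled as wild type, and every library came from this single line cultured in DMEM with serum. RNA was sequenced from 3 cultures labelled as treated with ozonated olive oil (OZO) and from 3 treated with olive oil without ozone (OLO), each at 0.01% for 6 h. The study asked how OZO changes expression relative to OLO. The table gives, for each gene, 1 average over the 6 libraries of both groups and the authors' own comparison of the groups. The average is analysed here, and the comparison was not used, so the levels below are those of OZO-treated and OLO-treated cells pooled, with no difference between the oils and no spread between cultures.

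The mammalian clock is a loop of transcription and translation that runs with a period of about a day in nearly every cell. The CLOCK and BMAL1 proteins bind E-boxes and activate the Per and Cry genes, whose products return to the nucleus and repress CLOCK and BMAL1. A second loop runs through the nuclear receptors REV-ERBα (Nr1d1) and REV-ERBβ (Nr1d2), which repress Bmal1, against the ROR receptors, which activate it. DBP is an output factor that is itself driven from E-boxes and activates genes with D-boxes, and BHLHE40 (also known as DEC1) represses E-box genes and is known to respond to serum, low oxygen and stress. In a culture dish the clocks of single cells drift apart unless a stimulus such as a medium change sets them together. All cultures were collected at 1 time, so the levels give no phase or amplitude.

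The promoter sequences show which letters of clock elements lie near the RefSeq start sites of these genes. RefSeq windows on GRCm38.p6, from 250 bases before to 50 bases after a start site, were matched for 8 of the 10 genes and comprised 11 windows, 3 of Clock, 2 of Per1 and 1 each of the others. Per2 and Bhlhe40 had no entry in the set of promoters used, which does not say that they lack a start site in RefSeq. Both Per1 windows lay within the annotated gene (chr11:69095217-69109960), so that its outermost annotated start was not searched. The letters searched, on both strands, were CACGTG (E-box), CACGTT (E-prime box, a weaker variant), AGGTCA (the core element of REV-ERB and ROR factors), TTATGTAA, TTACGTAA and TTATGCAA (D-boxes), TGACGTCA and its part TGACG (cAMP response element), ACGTG and GCGTG (hypoxia response cores, of which ACGTG lies within CACGTG and within the reverse complement of CACGTT) and GGGCGG (GC box). Capitals below mark the match, and a match on the other strand appears as its reverse complement.

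Per1 held an E-box 166 to 161 bases before the start site at position 69098949, in sequence chr11:69098763-69098808 (plus strand), which is intronic in longer GENCODE transcripts. Cry1 held one 60 to 55 bases before its start site, in chr10:85185089-85185134 (minus strand), outside the annotated gene.
Per1 E-box: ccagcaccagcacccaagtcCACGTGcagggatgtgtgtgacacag
Cry1 E-box: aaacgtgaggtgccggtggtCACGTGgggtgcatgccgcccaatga

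The E-prime box was found in Cry1, Cry2 and Nr1d1, each time on the strand opposite to the gene and outside the annotated gene. It lay 79 to 74 bases before the start site in Cry1 (chr10:85185108-85185153, minus strand), next to the E-box of the same promoter. In Cry2 it lay 166 to 161 bases before (chr2:92434210-92434255, minus strand), and in Nr1d1 28 to 23 bases before (chr11:98775380-98775425, minus strand).
Cry1 E-prime box: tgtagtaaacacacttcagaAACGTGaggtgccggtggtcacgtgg
Cry2 E-prime box: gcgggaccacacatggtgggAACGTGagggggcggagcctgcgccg
Nr1d1 E-prime box: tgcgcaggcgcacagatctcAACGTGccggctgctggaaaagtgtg

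Per3 was the gene with a pair of TTATGTAA D-boxes, 205 to 198 and 158 to 151 bases before its start site (chr4:151044843-151044890 and chr4:151044796-151044843, minus strand, both outside the annotated gene). The core element AGGTCA lay 77 to 72 bases before the start site of Nr1d2 (chr14:18239158-18239203, minus strand, outside the annotated gene). It also lay 137 to 132 bases before the start site of Per1 (chr11:69098792-69098837, plus strand, intronic in longer transcripts). Only the letters AGGTCA were searched, without the bases beside them, and binding by REV-ERB or ROR factors was not tested.
Per3 D-box, farther: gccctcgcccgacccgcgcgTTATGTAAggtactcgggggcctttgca
Per3 D-box, nearer: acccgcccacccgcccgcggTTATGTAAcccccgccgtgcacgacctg
Nr1d2 core element: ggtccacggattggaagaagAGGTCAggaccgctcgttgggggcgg
Per1 core element: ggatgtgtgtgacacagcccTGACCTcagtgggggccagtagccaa

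CACGTG was present in 2 of the 11 promoters (18.2%) and in 7.15% of all 32851 RefSeq promoters of this length. CACGTT was present in 3 of 11 (27.3%) against 4.68% of all, and AGGTCA in 3 of 11 against 16.3%, in Clock as well as Nr1d2 and Per1. The Clock match of AGGTCA lay in the innermost Clock window, within an intron. On the strand of the gene alone, CACGTT matched in 0 of 11 (against 2.36% of all) and AGGTCA in 1 (9.09% against 8.79%). TTATGTAA, found here in Per3, occurred in 0.938% of all promoters, and TTATGCAA, found in Per1, in 0.743%. TTACGTAA and the whole element TGACGTCA matched in none of the 11 windows, and in 0.119% and 1.79% of all. The part TGACG matched in 4 windows (36.4%, against 20.8% of all), belonging to Per1, Cry1 and Cry2. GC boxes were present in 9 of the 11 windows (81.8%) against 35.7% of all, and GCGTG also in 9 against 32.4% (3 windows, 27.3% against 20%, on the strand of the gene alone), whereas ACGTG was present in 5 (45.5%) against 19.6%, of which only that of Dbp held no E-box or E-prime box. The windows were GC-rich, with a median GC content of 65.7% against 52.7% for all promoters and a median of 21 CpG dinucleotides against 7, and the part of base composition in these shares was not tested. Nr1d1 and the innermost Clock window had the fewest CpG dinucleotides, 9 each, and the other Clock windows had 42 and 46. No E-box or E-prime box was matched in the window of Dbp, Nr1d2, Per3 or Clock, which says only that these letters are not in these windows.

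**Figure D1:**
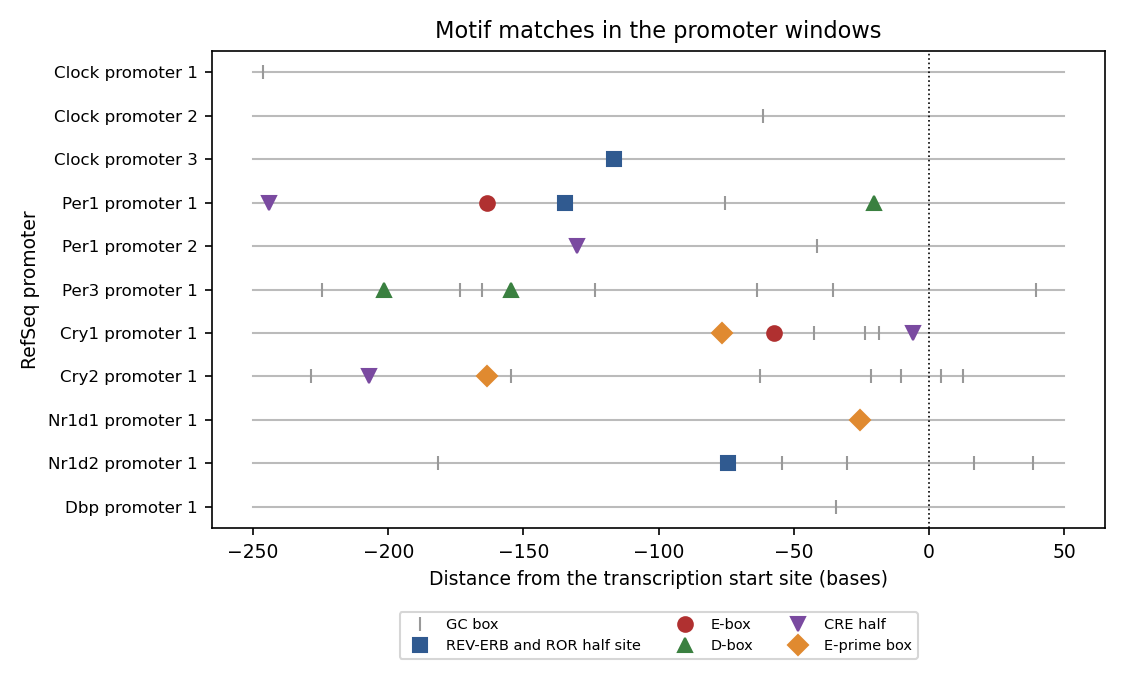
Positions of motif matches (symbols) in the 11 RefSeq promoter windows of 8 clock genes, in bases from the transcription start site (dotted line). E-boxes appear in Per1 and Cry1 only, E-prime boxes in Cry1, Cry2 and Nr1d1, and the D-box pair in Per3; the hypoxia response cores are not drawn.

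The libraries carried the markers of pigmented melanoma cells. All 8 melanocytic genes checked exceeded 60 CPM (read counts scaled to a common library size), from 60.9 CPM for Mc1r to 7052 CPM for Dct, with a sum of 17254 CPM. Keratinocyte genes were at or near 0, with Krt5 at 0 in every library and Krt14 and Krt10 at 0.0051 CPM. Of 4 fibroblast, 3 leukocyte and 2 endothelial genes, 5 reached 1 CPM, with Cd68 highest at 5.45 CPM and Cd3e at 0.011 CPM, and their part in the clock gene levels was not tested. Genes without a read, 6025 in number, shared the lowest average, from which an average depth of 19.6 reads per library and CPM follows, or 19641946 reads per library as a geometric mean after the authors' scaling. Depths of single libraries are unknown. Levels below are geometric means over the libraries, and per kb values are divided by the merged exon length of the gene in GENCODE M21, so that genes of different length can be compared.

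Clock, the DNA-binding partner that gives the loop its name, was the most abundant of the 10 transcripts by read number. The gene lies on chr5:76209868-76304792 (minus strand, GRCm38), and its average was 7.79 on the log2 CPM scale, or 222 CPM, resting on about 4352 reads per library. Only 885 of the 27179 genes had a higher average, and Clock exceeded 95.8% of the 21154 genes with at least 1 read. It is also a long transcript, with 13727 exon bases, so that its level per length was 16.1 CPM per kb. By CPM per kb, Clock exceeded 83.7% of the genes with reads and a known length. Its partner Bmal1, which CLOCK needs to bind DNA, reached 26.0 CPM and 3.45 CPM per kb. Clock exceeded Bmal1 by 4.67-fold per kb (95% interval from counting error alone, 4.50 to 4.85). With the longest transcript as the length the ratio was 3.50, and with basic transcripts 2.65, both outside the counting interval. Npas2, a paralogue that can stand in for CLOCK, was close to the limit of detection at 0.095 CPM, about 1.87 reads per library, and Bmal2, the paralogue of Bmal1, reached 3.22 CPM. Clock and Bmal1 were the only 2 of these 4 activator genes above 10 CPM.

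The period genes, which encode the PER scaffolds of the repressing complex, spanned a wide range. Per1 (chr11:69095217-69109960, plus strand) had 23.6 CPM, about 464 reads per library, and Per3 (chr4:151003652-151044665, minus strand) had 5.28 CPM, about 104 reads. Per2 (chr1:91415982-91459324, minus strand) had 0.225 CPM, about 4.41 reads per library, and was the lowest of the 10 genes. Per length, Per1 stood at 4.20, Per3 at 0.55 and Per2 at 0.038 CPM per kb. Per1 thus exceeded Per3 by 7.63-fold (95% counting interval 6.999 to 8.33) and Per2 by 109-fold (74.6 to 160). The ratio of Per1 to Per3 fell to 5.75 with the longest and to 4.77 with the basic transcripts as lengths. Per2 lay below 1 CPM, where its average exceeded 32.8% of genes with reads, and was the only one of the 10 genes to do so. Per2 and Per1 have merged exons of similar length, 5856 and 5631 bases, and neither shares exon bases with another annotated gene.

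For Per2 the average also limits how the reads were spread, although it does not say which library held them. The average of a gene less that of a gene without reads fixes the product of 6 odd whole numbers, each being double the read count of a library plus 1, and for Per2 this product was 899829. It can be split in 165 ways, and in all of them at least 34 reads were counted in the 6 libraries together. In every split the highest Per2 count of a library was at least 11 reads and the lowest at most 1. Per2 counts therefore differed between libraries by at least 10 reads, or 7.67-fold after addition of 0.5 reads, with no scaling to the depth of the libraries, and which oil the libraries had received cannot be read from the product. The split with the fewest reads was 1, 3, 4, 4, 11 and 11.

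Both cryptochromes, the repressors that bind CLOCK and BMAL1 directly, were expressed. Cry1 (chr10:85131700-85185064, minus strand) had 23.5 CPM, about 462 reads per library, practically the read number of Per1. With 3340 exon bases its level per length was 7.05 CPM per kb, 1.68-fold that of Per1 (95% counting interval 1.59 to 1.77). Cry2 (chr2:92403646-92434043, minus strand) had 12.4 CPM and 1.96 CPM per kb, and 295 of its 6320 exon bases overlap D930015M05Rik on the opposite strand. Cry1 exceeded Cry2 by 3.59-fold per kb (3.37 to 3.83), and by 2.50-fold with the longest transcripts. Cry1 was thus the most abundant PER or CRY transcript per length.

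In the second loop, Nr1d2 was far above Nr1d1. Nr1d2 (chr14:18204054-18239127, minus strand) had 78.6 CPM, about 1543 reads per library, and 14.5 CPM per kb. Nr1d1 (chr11:98767932-98775333, minus strand) had 7.43 CPM, about 146 reads, and 2.41 CPM per kb. The difference was 6.02-fold per kb (95% counting interval 5.61 to 6.45). Of the 3077 exon bases of Nr1d1, 263 overlap Thra, the thyroid hormone receptor gene on the opposite strand, and because the strand setting of the counting is not given in the sources used here, the level of Nr1d1 is uncertain. How many reads fell on the shared bases, and whether they were counted for Nr1d1, was not tested. Of the opposing receptors, Rora had 7.64 CPM and Rorb 0.308 CPM. Nr1d2 exceeded Rora by 24.9-fold per kb (23.2 to 26.6).

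Dbp, the output activator, was among the least expressed of the 10 genes. It lies on chr7:45705088-45710203 (plus strand) and had 1.45 CPM, about 28.5 reads per library, and 0.48 CPM per kb. The product for Dbp allowed no total under 178 reads, with a highest count of at least 46 reads in a library and a lowest of at most 20, at least 2.27-fold apart after addition of 0.5 reads and without scaling to depth. Of its 2993 exon bases, 539 overlap Sphk2 on the opposite strand, so that, for the same reason, the level of Dbp is uncertain, in a direction that was not tested. The related D-box activators were higher. Tef reached 55.4 CPM, 14.6-fold above Dbp per kb (95% counting interval 12.5 to 16.9), and Hlf 10.6 CPM, 3.27-fold above (2.78 to 3.83). Nfil3, a repressor of the same D-boxes, reached 45.8 CPM and 46.6-fold the level of Dbp per kb (40.05 to 54.3), a ratio that became 28.6 with the longest transcripts because the merged exons of Dbp are 1.63 times as long as its longest transcript.

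Bhlhe40 had the highest level per length of the 10 genes. It lies on chr6:108660629-108666925 (plus strand), is compact, with 4705 exon bases in a span of 6.30 kb, and had 113 CPM, about 2218 reads per library, and 24.0 CPM per kb. It exceeded 89.8% of the genes with reads by CPM and 89.3% by CPM per kb. Of its exon bases, 118 overlap the gene 0610040F04Rik on the opposite strand. Bhlhe41 (DEC2), its closest relative, reached 45.2 CPM, and Bhlhe40 exceeded it by 3.57-fold per kb (95% counting interval 3.46 to 3.69), although 1280 bases of Bhlhe41 overlap Gm43909 on the opposite strand. Compared with the period genes, Bhlhe40 stood 5.72-fold above Per1 per kb (5.49 to 5.96). It stood 626-fold above Per2 (427 to 916), or 942-fold with the longest transcripts, but the Per2 reads were few and uneven between libraries. Cry1, the highest PER or CRY transcript per length, was nearer to Bhlhe40, at 7.05 CPM per kb. Ciart, a further repressor of CLOCK and BMAL1, had 1.93 CPM.

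**Figure D2:**
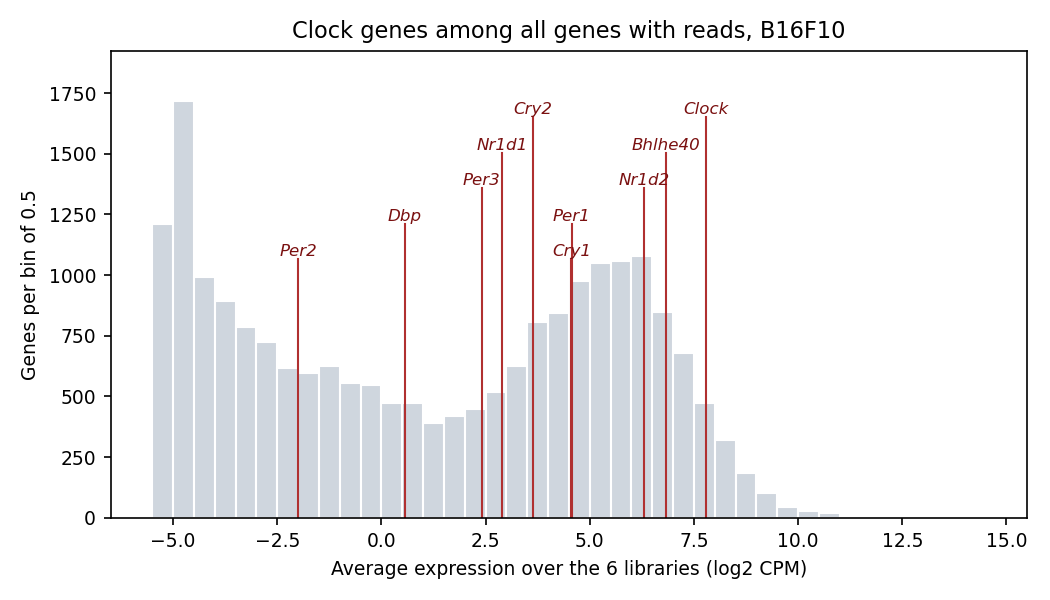
Histogram of the authors' average expression (log2 CPM over the 6 libraries) for 21154 genes with reads in bins of 0.5, with each of the 10 genes as a red line whose height has no meaning. Nr1d2 lies at the peak of the expressed genes, Clock and Bhlhe40 lie to its right, and Per2 lies among weakly expressed genes.

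Ordered by CPM per kb, the 10 genes ran Bhlhe40, Clock, Nr1d2, Cry1, Per1, Nr1d1, Cry2, Per3, Dbp and Per2. Counting error alone could not separate Per3 from Dbp, whose difference was 0.18 on the log2 scale (95% counting interval -0.06 to 0.43). The steps from Clock to Nr1d2 (1.11-fold) and from Nr1d1 to Cry2 (1.23-fold) exceeded counting error, but the latter turned around with the longest or the basic transcripts as lengths. The largest step, 12.6-fold, separated Dbp from Per2, and was 20.5-fold with the longest or the basic transcripts. By CPM without length, Clock came before Bhlhe40 and Cry2 before Nr1d1, while Per1 (23.6 CPM) and Cry1 (23.5 CPM) lay within counting error of each other. These intervals cover counting error only and assume the same number of reads in every library. They hold no spread between cultures, so that they are a lower limit of the error. The assumption of equal reads did not hold for Per2 and Dbp, whose unscaled counts differed at least 7.67-fold and 2.27-fold between libraries.

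**Figure D3:**
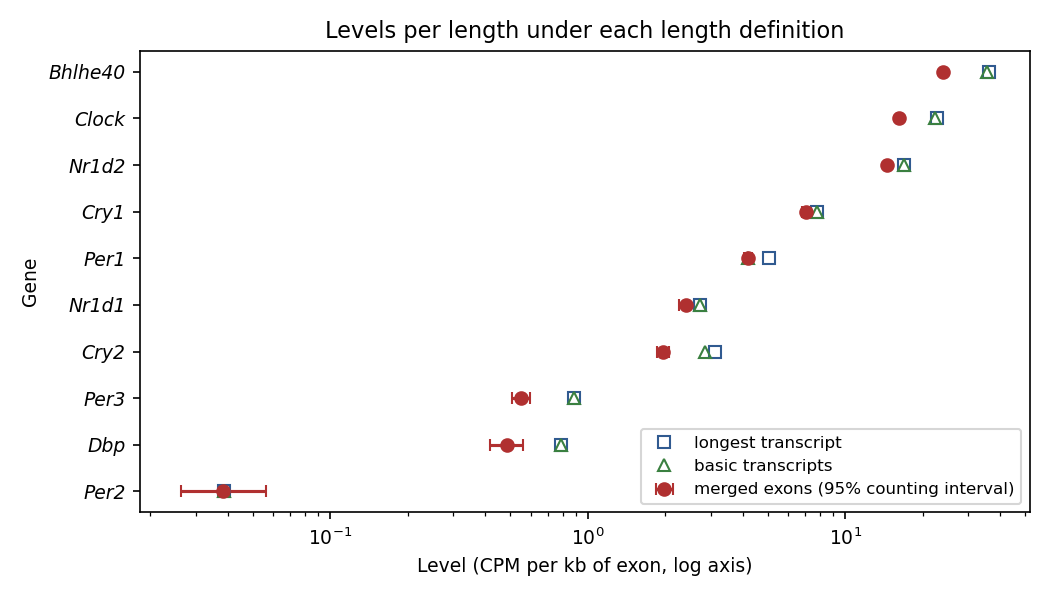
Level of the 10 genes in CPM per kb of exon (log axis), with lengths from merged exons (red circles, bars are 95% counting intervals), the longest transcript (blue squares) and the basic transcripts (green triangles). Bhlhe40 leads and Per2 is last under every length, and Nr1d1 and Cry2 exchange places.

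As a group, 9 of the 10 genes reached 1 CPM and 6 reached 10 CPM, with a median of 18.0 CPM. Over the 21154 genes with reads, 56.0% reached 1 CPM, 41.4% reached 10 CPM and the median was 2.70 CPM. Among the 11849 genes with at least 1 CPM, the 9 genes had a median percentile of 42.8, below the middle of that pool. Per length, the median of the 10 genes was 3.31 CPM per kb, against 1.45 for 19227 genes with reads and a known length. For the 19 other clock genes reported, the median was 38.3 CPM and 3.46 CPM per kb, and 16 of them reached 1 CPM. The highest of them were not transcription factors of the loop but partners and enzymes that set the stability of PER and CRY. Nono, an RNA-binding partner of PER, reached 478 CPM, Gsk3b 339 CPM and Csnk1d, the kinase that marks PER for degradation, 204 CPM. Fbxw11 and Btrc, the receptors of the ubiquitin ligase for phosphorylated PER, reached 130 and 38.3 CPM, and Csnk1e reached 90.2 CPM. Fbxl21, a ubiquitin ligase receptor for CRY, had 0.470 CPM. Timeless reached 38.5 CPM and the deubiquitinase Usp2 16.7 CPM. Of the 19 genes, Npas2, Rorb and Fbxl21 lay below 1 CPM.

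**Figure D4:**
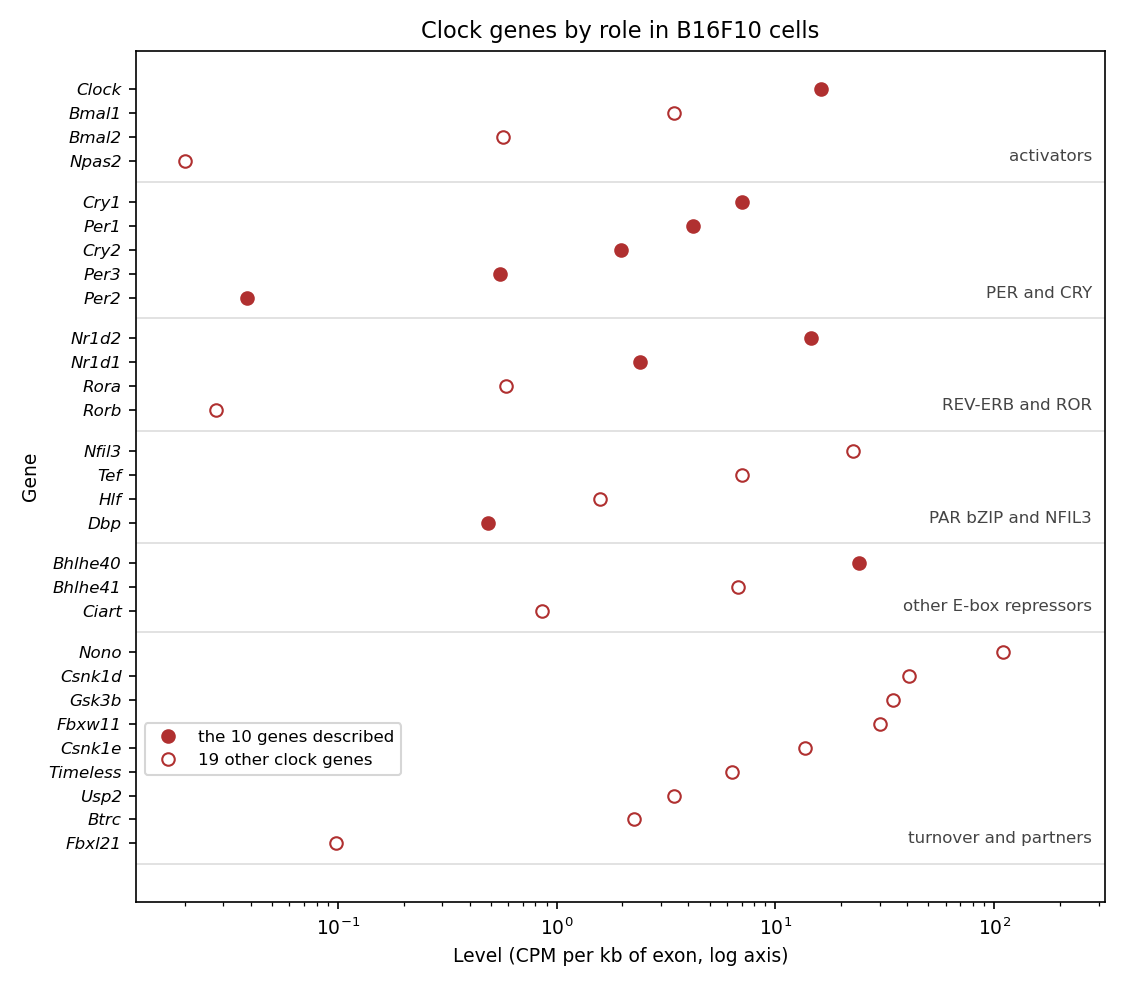
Level of the 10 genes described (filled circles) and 19 other clock genes (open circles) in CPM per kb of exon (log axis), grouped by role. Clock lies 810-fold above Npas2, Cry1 184-fold above Per2 and Nr1d2 522-fold above Rorb.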

How the data were processed

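RNA libraries of B16F10 cells (OLO, n = 3 and OZO, n = 3) were made with a directional kit. According to the methods and the submitters' processing notes, the authors aligned reads to mm10 with HISAT2 (2.1.0), counted them with featureCounts (2.1.1) and fitted limma-voom (3.58.1). The authors deposited average log2 CPM values, which contain 0.5 added reads and are pooled over all 6 libraries. The other 5 value columns hold the authors' comparison of OZO with OLO (fold change, statistics and p-values) and were not used. The strand setting of the counting and the scaling method are not given in the sources used here.

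The added reads were subtracted on the linear scale, and CPM was turned into reads through the shared lowest value. All 3020 genes less than 0.9 log2 units above that value lay on whole reads (tolerance 1e-06). Exon lengths came from GENCODE M21 on GRCm38, the same assembly as mm10, in which 23906 of 24126 Ensembl identifiers were found. The authors' gene models may differ from it. Counting intervals (95%) were computed from the reads of 6 libraries, and the calculations were tested on simulated data. The members, and the lists of other clock genes, markers and motifs, were chosen with earlier results of these data known. The genes named are the 10 members, 19 other clock genes and the markers. The list of other clock genes held a further 2 genes that are withheld and not reported here, and its medians and counts are over the 19. Bmal1 and Bmal2 were listed as Arntl and Arntl2. Ratios between pairs of genes were chosen after their levels had been seen. No test between groups was made. Python 3.11.15, numpy 2.4.6 and matplotlib 3.10.9 were used.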

Additional observations from a re-analysis of the deposited data

How the results depend on the processing

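No paired analysis was possible because each gene has a single average over all 6 libraries. The planned fit of OZO against OLO, with its other tests, normalizations, filters and pseudocounts, the replicate block and the leaving out of each replicate, needs values of single libraries and was not run. The authors' own comparison in the table was left out by choice.

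The median percentile of the 10 genes was 64.3 among genes with reads, 72.2 among all genes of the table and 42.8 among genes with at least 1 CPM, where 9 of them were left. The pools differ in how many weak genes they hold. Lengths of the longest transcripts raised the CPM per kb of 9 genes by more than counting error, most for Dbp (1.63 times), while Per2 stayed within it (1.004 times). Lengths of basic transcripts, an alternative chosen after the data had been seen, did so for 8 genes. The reads were the same under each length, so that counting error is only a yardstick for the size of these changes. Leaving the added reads in changed no gene beyond counting error and raised Per2 most, 1.11 times. CACGTG was present in 2 promoters also before the start site alone. It is its own reverse complement, so the search of 1 strand could not change its count. Searching the strand of the gene alone left 0 promoters with CACGTT in place of 3 (0% against 2.36% of all promoters), 1 with AGGTCA in place of 3 (9.09% against 8.79%) and 3 with GCGTG in place of 9 (27.3% against 20%), so that their excess over all promoters was smaller or absent. Before the start site alone all 11 motif counts stayed within 1.5 times. Among the 10 genes depth limits Per2 most, with a counting error of 0.28 on the log2 scale, and Npas2 had 0.43.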
